A study of Mus musculus with 2 samples.

Results

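The collagen genes described here are the 44 of 32285 measured features whose symbol reads Col, a chain-type number, a and a chain number, and all 44 were counted in both libraries. The libraries are droplet single-cell RNA libraries of dissociated mouse tumours of MC38, a colon adenocarcinoma cell line, made with a kit that tags the 3' end of each RNA. The library labelled Mbtps1 KD (SHM in its title, a knockout in the series text) is called KD here, and the library labelled Mbtps1 WT is called WT. Each group is 1 library. The labels do not name the host strain, age or sex, the number of tumours in a library, or how and in which cells Mbtps1 was altered. MBTPS1 is a Golgi protease that activates membrane-bound transcription factors. The comparison asks how its loss relates to the tumour and the cells around it.

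Collagens are secreted proteins whose chains wind around each other in a helix. Fibril-forming collagens (types I, II, III, V, XI, XXIV and XXVII) give tissue its tensile strength, and type V chains sit inside type I fibrils and limit their width. Network collagens (types IV, VIII and X) form sheets, of which type IV is the scaffold of basement membranes. Beaded filaments of type VI link cells to the fibrils, and fibril-associated collagens such as types XII, XIV and XVI decorate fibril surfaces. Type XVII and its relatives span the cell membrane, types XV and XVIII lie in basement membranes around vessels, and type VII anchors epithelium to the tissue below. Fibroblasts and pericytes are the usual source of fibrillar collagen in tumours, and endothelial cells with pericytes that of type IV.

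After filtering, 15635 KD cells and 11011 WT cells were kept (the loading step of the protocol names 6000 cells put in and 3000 aimed for). The libraries held 174190399 UMIs in KD and 177399315 UMIs in WT, of which 75.4% and 81.2% lay in kept KD and WT cells. The median was 5034 UMIs per cell in KD and 8207 in WT, where a UMI (unique molecular identifier) marks 1 captured RNA molecule, and 46 barcodes occurred among the cells of both libraries. Levels are given as CPM, the UMIs of a gene per 1000000 UMIs of the class. Each RNA gives 1 tag at its 3' end, so no correction for gene length was made. Clusters of cells, built without collagen genes, gave 6165 KD and 4109 WT tumour cells, 175 KD and 171 WT fibroblasts, 45 KD and 50 WT pericytes, and 101 KD and 103 WT endothelial cells. Mbtps1 stood at 12.7 CPM in KD tumour cells and 29.3 CPM in WT tumour cells, and at 19.6 and 19.4 CPM in KD and WT macrophages and monocytes. Ratios are KD over WT with exact 95% intervals for counting error only. The name tumour rests on a low Xist level and on a list of 19 markers, among them Phgdh, with 698 CPM in KD and 645 CPM in WT cells of cluster 0 and 81.5 CPM in KD and 32.6 CPM in WT fibroblasts. Igf2bp2, Igf2bp3, Cdkn2a, Pld5, Rgs20 and Psat1 were also higher in cluster 0 in both libraries. H19, also on the list, did not set cluster 0 apart, with 87.3 CPM in KD and 115 CPM in WT there and 99.2 CPM in KD and 109 CPM in WT in fibroblasts. Robo2 was higher in fibroblasts, at 43.9 CPM in KD and 76.1 CPM in WT, against 10.8 CPM in KD and 17.9 CPM in WT in cluster 0. Itgbl1, Gfra2 and Nrp2 were higher in WT fibroblasts than in WT cells of cluster 0, and Gfra2 in KD too. The epithelial markers Krt8, Krt18, Epcam and Cdh1, which a carcinoma would carry, were at or near 0, for example 0.209 CPM of Cdh1 in KD and 0.242 CPM in WT cells of the collagen-rich cluster 2. With 1 library a group, no difference has a replicate check, so none is tested, and tumour of origin, library and genotype cannot be told apart.

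The stretches before the start site of 4 collagen genes are shown because their patterns differ from each other. Col3a1 led the tumour and fibroblast lists, and Col1a2 was low in tumour cells and high in fibroblasts. Col5a3 was lower in every KD tumour cluster. Col16a1, though higher in fibroblasts, had the smallest gap to tumour cells of the genes compared in both classes. The windows are the 250 bases before the RefSeq start on GRCm38.p6, read 5′ to 3′ on the strand of the gene, with every match to 1 of 3 motifs on either strand in capitals. The motifs are the CCAAT box (reverse form ATTGG), the TATA box as TATAAA (reverse form TTTATA) and the GC box as GGGCGG (reverse form CCGCCC). No matches overlap.
Col3a1, chr1:45311288-45311537, plus strand: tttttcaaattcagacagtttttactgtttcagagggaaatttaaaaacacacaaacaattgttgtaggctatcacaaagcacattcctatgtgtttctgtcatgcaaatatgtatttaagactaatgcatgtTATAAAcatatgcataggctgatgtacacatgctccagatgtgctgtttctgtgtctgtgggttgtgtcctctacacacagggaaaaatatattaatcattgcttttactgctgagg
Col1a2, chr6:4505368-4505617, plus strand: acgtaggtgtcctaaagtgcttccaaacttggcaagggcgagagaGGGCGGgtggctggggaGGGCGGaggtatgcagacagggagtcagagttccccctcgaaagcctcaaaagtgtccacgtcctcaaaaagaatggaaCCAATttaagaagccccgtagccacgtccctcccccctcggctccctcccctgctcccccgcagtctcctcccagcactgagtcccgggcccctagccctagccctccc
Col5a3, chr9:20815068-20815317, minus strand: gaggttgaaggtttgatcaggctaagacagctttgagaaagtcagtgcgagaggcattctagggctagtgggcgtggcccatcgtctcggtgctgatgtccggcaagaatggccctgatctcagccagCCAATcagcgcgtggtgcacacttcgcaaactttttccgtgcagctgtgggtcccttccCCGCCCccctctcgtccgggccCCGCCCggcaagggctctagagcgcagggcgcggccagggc
Col16a1, chr4:130047590-130047839, plus strand: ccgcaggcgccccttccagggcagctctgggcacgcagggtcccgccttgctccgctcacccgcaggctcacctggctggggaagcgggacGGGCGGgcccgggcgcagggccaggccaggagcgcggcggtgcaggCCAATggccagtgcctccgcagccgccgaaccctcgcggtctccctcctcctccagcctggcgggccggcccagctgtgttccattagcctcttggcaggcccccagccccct

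The window of Col3a1 was the poorest in C and G of these 4, at 35.2%, and held no CpG. That of Col1a2 had 62.0% C and G with 11 CpGs, that of Col5a3 62.8% with 17, and that of Col16a1 75.6% with 21. RefSeq windows were found for 35 of the 44 genes, with 38 windows in all. GGGCGG stood in 22 of these 38 windows (57.9%) and in 32.7% of all 32841 windows. The collagen windows were also richer in C and G, with a median of 59% and 9.5 CpGs, against 52.4% and 6 CpGs in all windows. The part of this content in the GGGCGG share was not tested. CCAAT stood in 34.2% of the collagen windows and 33.9% of all, and TATAAA in 13.2% of the collagen windows and 12.4% of all. A match is a description of letters, not a binding site.

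Fibroblasts held the highest collagen level in both libraries. All collagens together made 47656 CPM in KD fibroblasts and 44740 CPM in WT fibroblasts. Pericytes followed at 17673 CPM in KD and 21687 CPM in WT, then endothelial cells at 7630 CPM in KD and 7028 CPM in WT. Tumour cells stood below these classes at 2253 CPM in KD and 3326 CPM in WT. Tumour cells gave 74.5% of all collagen UMIs of KD cells and 77.9% of those of WT cells. Fibroblasts, 1.12% of KD cells and 1.55% of WT cells, gave 16.0% in KD and 14.6% in WT.

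Immune cells, which are not known as makers of fibrillar collagen, also carried collagen UMIs. Macrophages and monocytes had 272 CPM in KD and 218 CPM in WT, and T cells 393 CPM in KD and 288 CPM in WT, while droplets without a cell had 2203 CPM in KD and 3073 CPM in WT. The share of UMIs from free RNA, estimated from macrophage genes, was 3.47% in KD and 2.07% in WT tumour cells, and 10.5% in KD and 3.63% in WT fibroblasts. It was 5.28% in KD and 10.4% in WT pericytes, and 11.9% in KD and 3.77% in WT endothelial cells.

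Of the 44 genes, 41 had at least 20 UMIs over the kept cells of both libraries, and 25 of these had their highest level in the same class in both. That class was the fibroblast for 16, among them Col1a1, Col1a2, Col3a1, Col5a1, Col5a2, Col12a1 and Col14a1. It was the endothelial cell for the type IV chains Col4a1 and Col4a2 and for Col13a1, a transmembrane collagen. Pericytes led for Col18a1, Col6a4 and Col6a5, but Col6a4 had 2 UMIs in KD and 2 in WT pericytes and Col6a5 2 in KD and 6 in WT, so the lead of these type VI chains rests on few molecules. Keratinocytes led for Col17a1, the hemidesmosome collagen, at 526 CPM in KD and 329 CPM in WT, and for Col4a5 and Col4a6. Tumour cells led for none in both libraries. All 22 genes counted well enough in tumour cells and fibroblasts were higher in fibroblasts in both libraries, and the gap was smallest for Col16a1, at 1.41 times in KD and 1.47 times in WT. Col2a1, Col9a1 and Col9a2, chains of cartilage collagens, stayed under 20 UMIs.

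**Figure D1:**
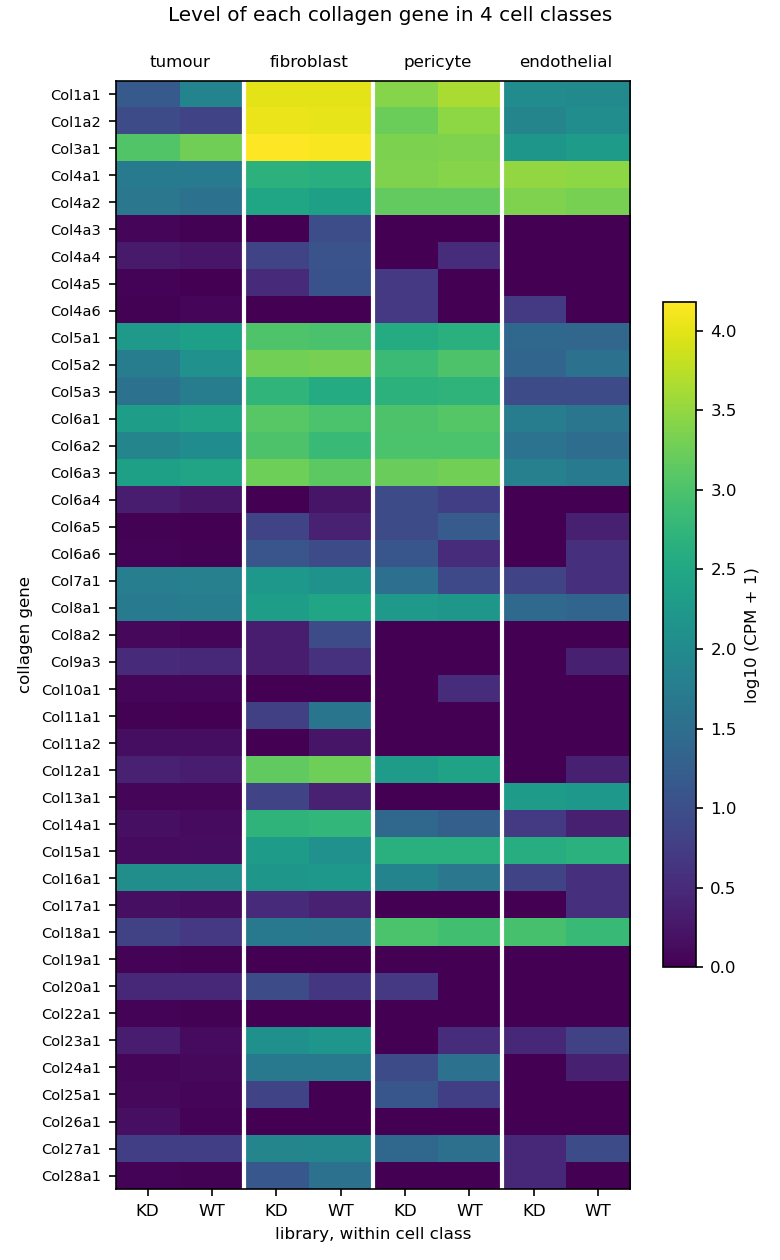
Level of each of the 41 collagen genes with at least 20 UMIs, as log10 (CPM + 1) in colour, in tumour cells, fibroblasts, pericytes and endothelial cells of the KD and WT libraries. Col3a1 is bright in tumour cells and fibroblasts, Col1a1 and Col1a2 are bright in fibroblasts and darker in tumour cells, and Col4a1 and Col4a2 peak in endothelial cells.

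Tumour cells made a different mix of collagens from fibroblasts. Col3a1 was 48.1% of the collagen UMIs of KD tumour cells and 56.1% of those of WT tumour cells. The type VI chains Col6a3 and Col6a1 came next, with 10.3% and 9.61% in KD against 8.13% and 7.70% in WT. In fibroblasts Col3a1 was 31.5% in KD and 30.9% in WT, Col1a2 23.4% in KD and 23.0% in WT, and Col1a1 21.2% in KD and 22.5% in WT. In tumour cells Col1a1 was 0.634% in KD and 2.26% in WT, and Col1a2 0.377% in KD and 0.189% in WT.

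The pooled collagen level of tumour cells was lower in KD, and nearly all of that gap lay in how the UMIs were spread over tumour clusters. The pooled ratio was 0.677 (0.673 to 0.681). Cluster 2, led by Mfap4, H19, Aspn, Ogn and Dpt, was the richest in collagen in both libraries, at 5389 CPM in KD and 5308 CPM in WT, with a ratio of 1.02 (1.01 to 1.03). It held 12.5% of KD tumour cells and 47.2% of WT tumour cells. It gave 24.2% of the tumour collagen UMIs in KD and 66.8% in WT.

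The other tumour clusters stood well below cluster 2 in both libraries. Cluster 0, the largest in KD, had 1549 CPM in KD and 1435 CPM in WT. Cluster 3 had 2206 CPM in KD and 2296 CPM in WT, and cluster 17, led by interferon-induced genes, 1935 CPM in KD and 1833 CPM in WT. Cluster 9, led by Cxcl1 and stress genes, was the exception with 2119 CPM in KD and 2754 CPM in WT, a ratio of 0.769 (0.756 to 0.783). With the clusters at equal weight the ratio was 0.969, and without cluster 2 it was 0.999. Each cluster was then weighted by its share of the tumour UMIs of a library. KD levels with WT shares of UMIs gave 3325 CPM against 3326 CPM in WT, while WT levels with KD shares gave 2316 CPM. Cluster 8, led by skeletal muscle genes and not counted as tumour, had 1265 CPM in its 1343 KD cells and 944 CPM in its 353 WT cells. It carried 9 of the tumour markers and 7.12 CPM of Xist, and was left unnamed because muscle genes led it. Counted as tumour, it brought the pooled ratio to 0.675, and the shares of tumour cells given here are without it.

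The shares of cells given above describe cluster size only, and the weights behind the pooled value are shares of UMIs. Tgfb3, a TGF-beta ligand and 1 of the 10 leading genes of cluster 2, had a ratio of 0.583 at equal weight, and how such genes shaped the clusters was not tested. Tumour cells were also shallower in KD, with a median of 14348 UMIs against 22290 in WT, and among tumour cells of 10000 to 20000 UMIs the ratio was 0.466. The part of depth in this result was not tested.

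Cluster 2 also carried more fibroblast markers than the other tumour clusters. The 18 fibroblast markers summed to 2194 CPM in KD and 1871 CPM in WT cells of cluster 2, to between 814 and 979 CPM in KD and between 782 and 1095 CPM in WT in the other clusters, and to 18532 CPM in KD and 15771 CPM in WT in fibroblasts. Of the 18, 10 in KD and 11 in WT reached 20 CPM in cluster 2, against 7 or 8 in the others. Dcn, a proteoglycan of collagen fibrils, made most of the difference at 1190 CPM in KD and 768 CPM in WT. Lum, another proteoglycan of fibrils, had 12.0 CPM in KD and 20.3 CPM in WT there, against 0.602 CPM in KD and 1.16 CPM in WT in cluster 0. Mfap5, a microfibril protein, had 22.2 CPM in KD and 21.8 CPM in WT. In cluster 0 it had 2.79 CPM in KD and 2.72 CPM in WT. Pdgfra had 85.5 CPM in KD and 125 CPM in WT, against 42.1 CPM in KD and 42.2 CPM in WT in cluster 0. Its gap to cluster 3 was smaller, with 78.7 CPM in KD and 102 CPM in WT there. Some markers of the list went the other way. Fbln1 was lower in cluster 2 than in each other tumour cluster in both libraries, and Fbln2 was lower than in cluster 0. Twist2 had 48.4 CPM in KD and 43.1 CPM in WT in cluster 2. In cluster 3 it had 59.6 CPM in KD and 58.1 CPM in WT. Cxcl12 was near 0 in cluster 2, at 0.628 CPM in KD and 0.363 CPM in WT, against 707 CPM in KD and 562 CPM in WT in fibroblasts. The 19 tumour markers summed to 2865 CPM in KD and 2920 CPM in WT cells of cluster 2, where H19, a non-coding RNA, made 1616 CPM in KD and 1873 CPM in WT, and to 513 CPM in KD and 585 CPM in WT fibroblasts. The part of fibroblast RNA in the collagen level of cluster 2 was not tested.

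**Figure D2:**
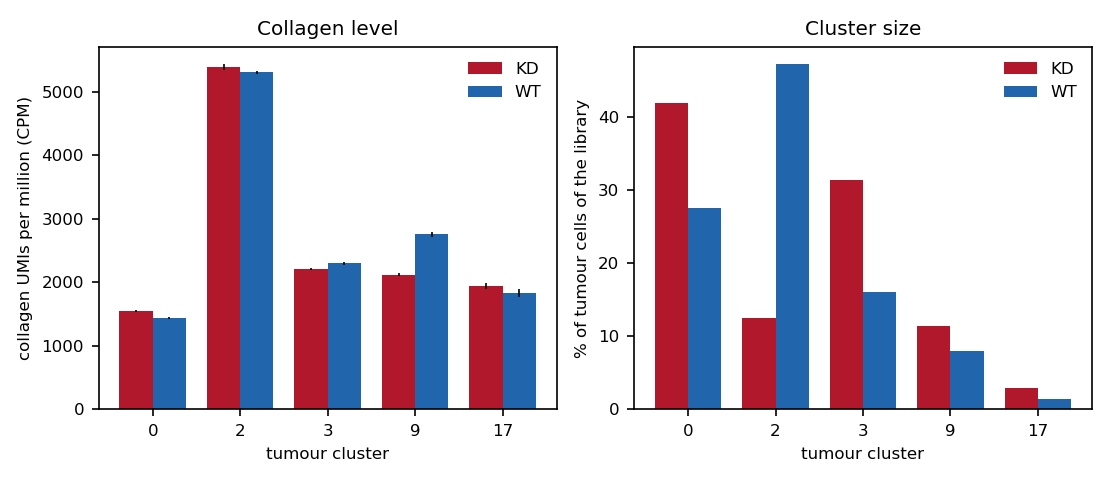
Left, collagen level (CPM) in each of the 5 tumour clusters, with 95% counting intervals; right, the share of the tumour cells of each library in each cluster; KD in red and WT in blue. Cluster 2 has about the same level in both libraries, 5389 CPM in KD and 5308 CPM in WT, but holds 12.5% of KD and 47.2% of WT tumour cells.

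Among tumour cells, 33 of the 44 genes had at least 20 UMIs over both libraries. Of these 5 were at least 1.5-fold lower in KD, where 5.08% of all genes were, and 4 were at least 1.5-fold higher, where 15.5% of all genes were. The median log2 ratio of the 33 genes was -0.06, and that of all genes 0.09. By group, fibril-forming collagens had 4 lower and 0 higher of 9, network collagens 1 lower of 7, and beaded-filament collagens 0 of 4. Fibril-associated collagens had 1 higher of 5, and the transmembrane and remaining collagens 3 higher of 8. The 24 genes between these limits had ratios from 0.717 (Col10a1) to 1.41 (Col6a4).

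With the 5 clusters at equal weight, Col1a1, Col5a2 and Col5a3 were still at least 1.5-fold lower, where 4.18% of all genes were, and Col6a4, Col14a1, Col23a1, Col25a1 and Col26a1 at least 1.5-fold higher, where 13.2% were. Each of the 3 lower genes had an interval below 1 in 5 of 5 clusters. Among the higher genes Col23a1 had an interval above 1 in 3 clusters, and each of the others in 1. Col25a1 was below 1 in 2 of the 5 clusters, and Col6a4 and Col26a1 in 1 each. Where a cluster had no UMI of a gene in either library, a small constant was added to both counts. Col3a1 was no longer past the limit.

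Col3a1, which encodes type III collagen of distensible tissue, was the most abundant collagen in tumour cells. It had 1083 CPM in KD and 1865 CPM in WT, a pooled ratio of 0.581 (0.576 to 0.585). At equal weight the ratio was 0.971. Within clusters it was 3404 CPM in KD and 3294 CPM in WT in cluster 2, 647 CPM in KD and 583 CPM in WT in cluster 0, and 957 CPM in KD and 983 CPM in WT in cluster 3. In cluster 17 it was 906 CPM in KD and 782 CPM in WT, a ratio of 1.16. Cluster 9 had the lowest ratio, 0.668 (0.652 to 0.685), at 957 CPM in KD and 1433 CPM in WT. The interval lay below 1 in 2 of the 5 clusters, 3 and 9, and above 1 in the other 3. Cluster 2 held 31.8% of the tumour Col3a1 UMIs in KD and 73.9% in WT.

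Col1a1, which encodes the main chain of type I collagen, had the lowest ratio of the 33 genes. It had 1347 UMIs and 14.3 CPM in KD tumour cells, against 7419 UMIs and 75.1 CPM in WT tumour cells. The ratio was 0.190 (0.179 to 0.202). The 1% of tumour cells richest in Col1a1, 62 in KD and 41 in WT, held 37.8% of these UMIs in KD and 21.0% in WT. The interval does not cover this spread between cells. In cluster 2 it had 63.9 CPM in KD and 148 CPM in WT, a ratio of 0.432 (0.396 to 0.469). In cluster 9 it had 12.4 CPM in KD and 69.6 CPM in WT, the lowest ratio of the 5 clusters at 0.178. Clusters 0, 3 and 17 had ratios of 0.636, 0.481 and 0.404. Levels in clusters 0, 3 and 17 were low. With free RNA subtracted, between 1.87 and 5.37 CPM remained there in KD, and between 7.90 and 13.8 CPM in WT. Free RNA itself was estimated to bring 3.57 to 3.67 CPM in KD. The equal-weight ratio was 0.394. Col1a1 was lower in KD in every tumour cluster as well as in the pool, but clusters 0, 3 and 17 rest on these low levels. In the unnamed cluster 8 the ratio was 0.855 (0.616 to 1.19).

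Col1a2, the partner chain of Col1a1, was low in tumour cells. It had 8.50 CPM in KD and 6.28 CPM in WT tumour cells, a ratio of 1.35 (1.22 to 1.51), while free RNA was estimated to bring 3.09 CPM in KD and 2.79 CPM in WT. The level was 2.75 times that of free RNA in KD and 2.25 times in WT. At equal weight the Col1a2 ratio was 1.13. Its cluster ratios ran from 0.547 to 1.81, below 1 in 2 of 5 clusters and with intervals above 1 in 3. The 1% of tumour cells richest in Col1a2 held 30.3% of its UMIs in KD and 37.4% in WT. After each cell was thinned to 500 UMIs, 0.454% of KD and 0.389% of WT tumour cells had a Col1a2 UMI, below the 0.955% of KD and 1.51% of WT T cells, which should lack the gene. Median depths before thinning were 14348 and 22290 UMIs in KD and WT tumour cells, and 1877 and 2732 in KD and WT T cells. T cells are shallower, so free RNA can be a larger share of their UMIs. Their share thus cannot tell whether the Col1a2 of tumour cells is background. In cluster 2 the Col1a2 share was 0.519% in KD and 0.464% in WT. With free RNA subtracted, 8.87 CPM in KD and 3.57 CPM in WT remained in that cluster. In fibroblasts the Col1a2 share was 85.7% in KD and 85.4% in WT. For Col1a1 the thinned shares were 0.908% in KD and 4.11% in WT tumour cells, against 1.07% of KD and 1.13% of WT T cells. In cluster 2 they were 2.73% in KD and 6.96% in WT. Before thinning they were 11.2% of KD and 35.0% of WT tumour cells, and 3.58% of KD and 4.91% of WT T cells. At this thinned depth the Col1a1 share was above that of T cells in WT tumour cells, and in KD tumour cells in cluster 2.

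The ratio of the 2 chains was taken within each class. Since Col1a2 was low in tumour cells, and free RNA was estimated to bring part of it, the value there describes UMIs and not a balance of chains. There were 1.68 Col1a1 UMIs for each Col1a2 UMI in KD tumour cells (1.54 to 1.84) and 12.0 in WT tumour cells (11.02 to 13.0). Cluster 2 had 5.5 in KD and 23.1 in WT. Fibroblasts had 0.905 in KD and 0.976 in WT, and pericytes 1.52 in KD and 1.51 in WT. Droplets without a cell had 1.24 in KD and 1.67 in WT. The other clusters had lower values in KD than in WT too, from 0.907 to 1.89 in KD and from 2.03 to 7.45 in WT, with overlapping intervals in cluster 17.

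**Figure D3:**
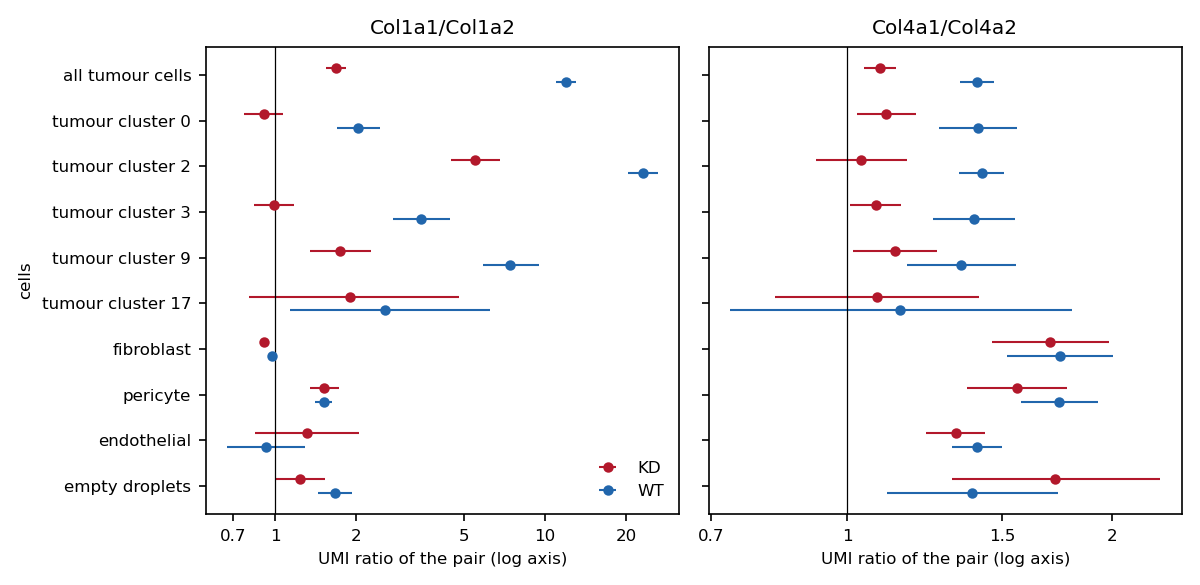
UMIs of Col1a1 per UMI of Col1a2 (left) and of Col4a1 per UMI of Col4a2 (right), on log axes, with 95% counting intervals, in tumour cells, each tumour cluster, stromal classes and droplets without a cell; KD in red, WT in blue. The type I ratio of tumour cells is 1.68 in KD and 12.0 in WT, where Col1a2 was low and in part free RNA by estimate. The type IV ratio of tumour cells is 1.09 in KD and 1.40 in WT.

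Type V chains were lower to unequal degrees. Col5a2 had 57.5 CPM in KD and 128 CPM in WT tumour cells, a ratio of 0.451 (0.436 to 0.465) and of 0.636 at equal weight. Its cluster ratios ran from 0.478 in cluster 9 to 0.884 in cluster 2. Col5a3 had 35.2 CPM in KD and 57.9 CPM in WT, a ratio of 0.608 (0.583 to 0.635) and of 0.666 at equal weight, with cluster ratios of 0.503 to 0.812. Col5a1, the chain found in most type V trimers, had 183 CPM in KD and 225 CPM in WT, a ratio of 0.811 (0.795 to 0.827) and of 0.898 at equal weight. There were 3.17 Col5a1 UMIs per Col5a2 UMI in KD tumour cells and 1.76 in WT, and the KD value was the higher in each of the 5 clusters, by least in cluster 2 at 1.33 in KD and 1.23 in WT with overlapping intervals.

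The type IV pair was level or higher. Col4a1 had 49.0 CPM in KD and 50.04 CPM in WT tumour cells, a ratio of 0.979 (0.940 to 1.02). Col4a2 had 44.9 CPM in KD and 35.6 CPM in WT, a ratio of 1.26 (1.21 to 1.32) and of 1.41 at equal weight. Its interval lay above 1 in all 5 clusters. These genes share a promoter region head to head and their chains assemble together. Their UMI ratio was 1.09 (1.04 to 1.14) in KD and 1.40 (1.35 to 1.47) in WT tumour cells. It ran from 1.04 to 1.13 over the KD clusters and from 1.15 to 1.42 over the WT clusters, with overlapping intervals in clusters 9 and 17. In endothelial cells it was 1.33 in KD and 1.40 in WT, with overlapping intervals.

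The type VI chains differed from each other once clusters were weighed alike. Col6a1 had 217 CPM in KD and 256 CPM in WT tumour cells, a pooled ratio of 0.846 (0.830 to 0.862) and an equal-weight ratio of 1.13. Col6a2 had 79.5 CPM in KD and 105 CPM in WT, a pooled ratio of 0.758 (0.736 to 0.781) and an equal-weight ratio of 1.17. Col6a3, the long chain that completes the trimer, had 232 CPM in KD and 270 CPM in WT. Its pooled ratio was 0.860 (0.844 to 0.875) and its equal-weight ratio 0.882. The Col6a3 ratio was below 1 in 5 of 5 clusters, with intervals below 1 in 4. The Col6a1 to Col6a3 ratio was 1.81 in KD and 1.23 in WT in cluster 2, and 0.835 in KD and 0.672 in WT in cluster 0. In each of the 5 clusters it was higher in KD, with overlapping intervals in cluster 17, although the pooled values were 0.932 in KD and 0.947 in WT.

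Col16a1, a fibril-associated collagen, was level in the pool, with 114 CPM in KD and 113 CPM in WT tumour cells. Its equal-weight ratio was 1.17, and its interval lay above 1 in all 5 clusters. Col7a1, the anchoring-fibril collagen, had 59.8 CPM in KD and 64.0 CPM in WT, a ratio of 0.933 (0.900 to 0.968), and 0.988 at equal weight. Col8a1, a short-chain network collagen, had 51.7 CPM in KD and 56.4 CPM in WT, a ratio of 0.917 (0.883 to 0.953), and 1.16 at equal weight.

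**Figure D4:**
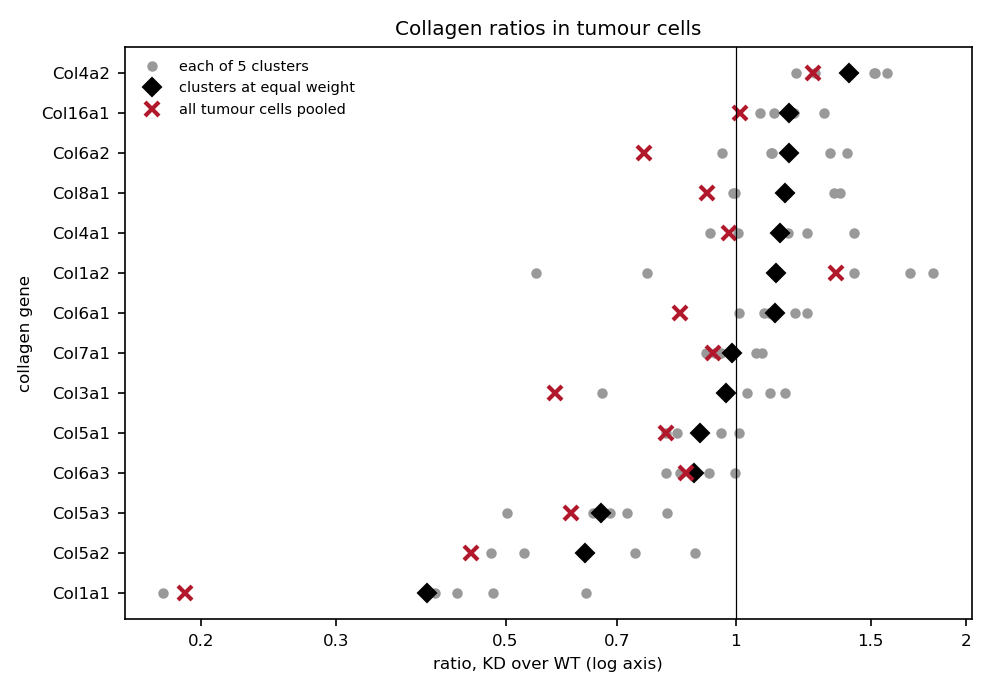
Ratio KD over WT on a log axis for the 14 collagen genes with at least 1000 UMIs in tumour cells: grey points are the 5 clusters, diamonds the clusters at equal weight, crosses all tumour cells pooled. Col1a1, Col5a2, Col5a3 and Col6a3 stay left of 1 in every cluster, Col6a3 by least at 0.809 to 0.996. Col3a1 moves from 0.581 pooled to 0.971 at equal weight.

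The other tumour genes past the limit had few UMIs. Col23a1, a transmembrane collagen, had 103 UMIs in KD and 34 in WT, or 1.09 CPM in KD and 0.344 CPM in WT, a ratio of 3.17 (2.13 to 4.82), and was above 1 in all 5 clusters with intervals above 1 in 3. Col26a1 had 47 UMIs in KD and 8 in WT, a ratio of 6.15 (2.88 to 15.1). Of the KD UMIs of Col26a1 33 lay in cluster 0 and 12 in a single cell, and cluster 2 had 0 in KD and 5 in WT. Col25a1, a transmembrane collagen of neurons, had 23 UMIs in KD and 15 UMIs in WT, a ratio of 1.61 (0.803 to 3.31), and Col4a6 7 UMIs in KD and 15 UMIs in WT, a ratio of 0.489 (0.169 to 1.27), of which 12 of the WT UMIs came from 1 cell. Col14a1, a fibroblast collagen, had 48 UMIs in KD and 31 UMIs in WT, or 0.509 CPM in KD and 0.314 CPM in WT, a ratio of 1.62 (1.01 to 2.64), but 0.683 with every cell at equal weight. Free RNA was estimated to bring 0.387 CPM of it in KD and 0.322 CPM in WT, so that it is near background in tumour cells. Col18a1, the source of endostatin, stayed under the limit at 5.38 CPM in KD and 3.85 CPM in WT, a ratio of 1.40 (1.22 to 1.60), and was above 1 in all 5 clusters.

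Genes that handle collagen went both ways in tumour cells, where 5.08% of all genes were lower and 15.5% higher. Of 18 modification and folding genes compared, 1 was at least 1.5-fold lower and 1 higher. Ppib, a prolyl isomerase, had 615 CPM in KD and 794 CPM in WT, and Serpinh1, the collagen chaperone, 307 CPM in KD and 429 CPM in WT, a ratio of 0.715 (0.704 to 0.725) and of 0.808 at equal weight. Fkbp14, another prolyl isomerase of the endoplasmic reticulum, had 4.51 CPM in KD and 13.9 CPM in WT, a ratio of 0.324 (0.290 to 0.361) and of 0.432 at equal weight. P4ha3, a prolyl hydroxylase, was higher at 0.467 CPM in KD and 0.253 CPM in WT.

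Cross-linking enzymes went both ways. All 5 were past the limit: Lox, Loxl1 and Loxl3 lower, Loxl2 and Loxl4 higher. Loxl1 had 11.0 CPM in KD and 35.8 CPM in WT, a ratio of 0.307 (0.286 to 0.329) and of 0.452 at equal weight, below 1 in 5 of 5 clusters. Loxl2 had 7.58 CPM in KD and 2.86 CPM in WT, a ratio of 2.66 (2.31 to 3.06) and of 2.28 at equal weight, and was below 1 in 0 of 5 clusters. Loxl3 had 4.35 CPM in KD and 6.71 CPM in WT, a ratio of 0.648, and 1.03 at equal weight, so it was no longer past the limit. Lox had 49 UMIs in KD and 122 UMIs in WT, a ratio of 0.421 (0.296 to 0.591), and Loxl4 79 UMIs in KD and 54 UMIs in WT, a ratio of 1.53 (1.07 to 2.21).

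Among 12 export and cleavage genes, Bmp1 and Tll1 were lower and Tll2 and Pcolce2 higher. Bmp1, the protease that removes the tail of procollagen, had 28.0 CPM in KD and 51.1 CPM in WT, a ratio of 0.547 (0.522 to 0.573), and 0.797 at equal weight. Pcolce, an enhancer of propeptide removal, had 152 CPM in KD and 132 CPM in WT, Mia3, a procollagen cargo receptor, 54.8 CPM in KD and 58.0 CPM in WT, and the proteases Tll1 and Tll2 had ratios of 0.324 and 1.82. Of 10 collagen receptors 3 were higher, the integrin chains Itga2, Itga10 and Itga11, the last at 2.89 CPM in KD and 1.38 CPM in WT with a ratio of 2.09. Ddr2, a receptor kinase for fibrillar collagen, had 290 CPM in KD and 245 CPM in WT, and Itgb1, the shared integrin chain, 274 CPM in KD and 269 CPM in WT. Itga1 had a ratio of 0.839 in the pool but of 1.25 at equal weight.

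Of 6 breakdown genes Mmp13, a collagenase, was higher at 1.22 CPM in KD and 0.425 CPM in WT, a ratio of 2.87 (1.998 to 4.19). Mmp14 had 198 CPM in KD and 236 CPM in WT, and Mmp9 35.3 CPM in KD and 34.6 CPM in WT with a ratio of 1.65 at equal weight. Mmp2 had a ratio of 0.678 in the pool and of 0.938 at equal weight. Of 18 genes of collagen transcription and TGF-beta signalling 5 were lower and 2 higher in the pool. At equal weight 2 were lower, Tgfb3 and Ccn2, where 4.18% of all genes were, and 2 higher, where 13.2% were. Tgfbr2, a TGF-beta receptor, had 68.6 CPM in KD and 103 CPM in WT, a ratio of 0.665 and of 0.877 at equal weight, and Mrtfa, a transcriptional co-activator, 80.4 CPM in KD and 72.4 CPM in WT. Ccn2, a TGF-beta target, had 7 UMIs in KD and 24 UMIs in WT, a ratio of 0.306 (0.111 to 0.731), and Scx, a tendon transcription factor, 19 UMIs in KD and 10 UMIs in WT, a ratio of 1.99 (0.880 to 4.79). Tgfb3 had 30.4 CPM in KD and 98.4 CPM in WT.

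Fibroblasts differed little in total collagen, with a ratio of 1.07 (1.05 to 1.08). Of 25 genes compared 3 were at least 1.5-fold lower in KD, where 13.7% of all genes were, and 2 were higher, where 7.85% were. The other 20 ran from 0.716 (Col8a1) to 1.48 (Col5a3). Col3a1 had 15001 CPM in KD and 13826 CPM in WT, a ratio of 1.08 (1.06 to 1.11). Col1a2 had 11156 CPM in KD and 10309 CPM in WT, a ratio of 1.08, and Col1a1 10100 CPM in KD and 10058 CPM in WT, with an interval of the ratio of 0.978 to 1.03. Fibroblasts of these libraries thus had Col1a1 nearly level in the pool, where tumour cells had 0.190. With sub-clusters at equal weight the fibroblast ratio was 0.862, and with clusters at equal weight the tumour ratio was 0.394.

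The type VI chains were higher in KD fibroblasts. Col6a2 had 966 UMIs and 1009 CPM in KD, against 914 UMIs and 662 CPM in WT, a ratio of 1.52 (1.39 to 1.67). Col6a3 had 1790 CPM in KD and 1338 CPM in WT, a ratio of 1.34 (1.25 to 1.43), and Col6a1 1247 CPM in KD and 981 CPM in WT, a ratio of 1.27 (1.18 to 1.38). The Col6a2 ratio was 1.5 in each of sub-clusters s0 and s2 and 1.27 in s4, the sub-clusters with at least 20 cells per library. Col6a3 was higher in s0, at 2609 CPM in KD and 1716 CPM in WT, but had ratios of 0.886 in s2 and 0.981 in s4. These sub-clusters held 61, 50 and 45 KD cells and 59, 40 and 23 WT cells.

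Col5a1 had 1064 CPM in KD and 933 CPM in WT fibroblasts, a ratio of 1.14 (1.05 to 1.24), Col5a2 1938 CPM in KD and 2090 CPM in WT, a ratio of 0.927 (0.874 to 0.983), and Col5a3 539 CPM in KD and 364 CPM in WT, a ratio of 1.48 (1.31 to 1.68). The direction of Col5a3 was opposite to that in tumour cells. That contrast has 1 library a group. Col12a1, which links fibrils to the matrix, had 1420 CPM in KD and 1773 CPM in WT, a ratio of 0.801 (0.749 to 0.856). Sub-cluster s0, led by Col12a1, Mmp3, Thbs4 and Postn, held most of it, at 2657 CPM in KD and 3218 CPM in WT.

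Other fibroblast members past the limit rested on fewer molecules. Col15a1 had 192 UMIs in KD and 178 in WT, or 201 CPM in KD and 129 CPM in WT, a ratio of 1.56 (1.26 to 1.92), but 0.95 with every cell at equal weight. Col11a1, a fibril collagen of cartilage and of some fibroblasts, had 5 UMIs in KD, all in 1 cell, and 57 in WT, 24 of them in 1 cell, a ratio of 0.126 (0.0396 to 0.313). In WT 30 of the 57 lay in sub-cluster s9, which had 4 KD and 11 WT cells. Col28a1, a collagen of nerve sheaths, had 12 UMIs in KD and 50 UMIs in WT, a ratio of 0.346 (0.168 to 0.659). Col4a4 had 6 UMIs in KD and 15 UMIs in WT, a ratio of 0.577 (0.183 to 1.57), but 1.18 with every cell at equal weight.

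Sub-clusters differed more from each other than libraries did. Collagens together made 59599 CPM in KD and 57445 CPM in WT in s0, 35457 CPM in KD and 37431 CPM in WT in s2, and 41035 CPM in KD and 50584 CPM in WT in s4. Sub-cluster s7, with 11 KD and 17 WT cells, had 6417 CPM in KD and 5250 CPM in WT, near the endothelial level. Sub-clusters s2 and s4, led by Clec3b and Pi16, carried most Col14a1, at 1214 CPM in KD and 1468 CPM in WT in s2 and 1015 CPM in KD and 1242 CPM in WT in s4, while s0 had 56.0 CPM in KD and 142 CPM in WT. With s0, s2 and s4 at equal weight the total ratio was 0.927, the other side of 1 from the pooled value. The small total difference between the libraries has no direction that holds under both weights.

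Pericytes had a total ratio of 0.815 (0.786 to 0.845), and both type I chains were lower in KD. Of 17 genes compared 2 were at least 1.5-fold lower, where 16.1% of all genes were, and 1 was higher, where 13.3% were, and 12 of the 17 intervals held 1. Col1a1 had 645 UMIs and 2591 CPM in KD, against 1800 UMIs and 4410 CPM in WT, a ratio of 0.588 (0.536 to 0.643). Col1a2 had 1703 CPM in KD and 2918 CPM in WT, a ratio of 0.584 (0.521 to 0.653), so the chains were lower together and their UMI ratio stayed at 1.52 in KD and 1.51 in WT. With every cell at equal weight the Col1a1 ratio was 0.687, no longer past the limit, and the Col1a2 ratio 0.624. The 19 tumour markers summed to 490 CPM in KD pericytes and 218 CPM in WT pericytes, and their part in the result was not tested.

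The remaining abundant pericyte collagens were closer to level. Col4a1 had 2362 CPM in KD and 2585 CPM in WT, a ratio of 0.914 (0.825 to 1.01), and Col4a2 1515 CPM in KD and 1482 CPM in WT, a ratio of 1.02 (0.896 to 1.16). The Col3a1 level was 2230 CPM in KD and 2379 CPM in WT, with a ratio of 0.937 (0.843 to 1.04). Col6a3 had 1667 CPM in KD and 1926 CPM in WT, a ratio of 0.866, Col6a1 1028 CPM in KD and 1174 CPM in WT, a ratio of 0.876, and Col6a2 988 CPM in KD and 997 CPM in WT, a ratio of 0.991. Col16a1 had 19 UMIs in KD and 18 in WT, a ratio of 1.73 (0.860 to 3.5). Col18a1, the basement membrane collagen with its highest level in pericytes, had 992 CPM in KD and 826 CPM in WT, a ratio of 1.20 (1.02 to 1.42).

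Endothelial cells held type IV collagen in the main, at 72.6% of their collagen UMIs in KD and 72.8% in WT for the network group. The total ratio was 1.09 (1.04 to 1.13). Of 14 genes compared 1 was at least 1.5-fold lower in KD, where 11.0% of all genes were, and 0 were higher, where 11.9% were, and 12 of the 14 intervals held 1. Col4a1 had 3143 CPM in KD and 2977 CPM in WT, a ratio of 1.06 (0.989 to 1.13), and Col4a2 2366 CPM in KD and 2121 CPM in WT, a ratio of 1.12 (1.03 to 1.20). Col18a1 had 914 CPM in KD and 659 CPM in WT, a ratio of 1.39 (1.22 to 1.58), and Col15a1 392 CPM in KD and 459 CPM in WT, a ratio of 0.854 (0.712 to 1.02). Col13a1 had 206 CPM in KD and 167 CPM in WT, a ratio of 1.23 (0.939 to 1.62).

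Fibrillar collagens were low in endothelial cells. Col3a1 had 161 CPM in KD and 197 CPM in WT, of which free RNA was estimated to bring 103 CPM in KD and 51.0 CPM in WT. Col1a1 had 103 CPM in KD and 100 CPM in WT, and Col1a2 78.7 CPM in KD and 109 CPM in WT. Col5a2 was the gene past the limit, with 11 UMIs in KD and 26 UMIs in WT and a ratio of 0.629 (0.281 to 1.32). Without the cell richest in collagen in each library the Col1a1 ratio was 0.278 in place of 1.03, and that of Col3a1 1.22 in place of 0.821, so 1 cell a library decides both.

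**Figure D5:**
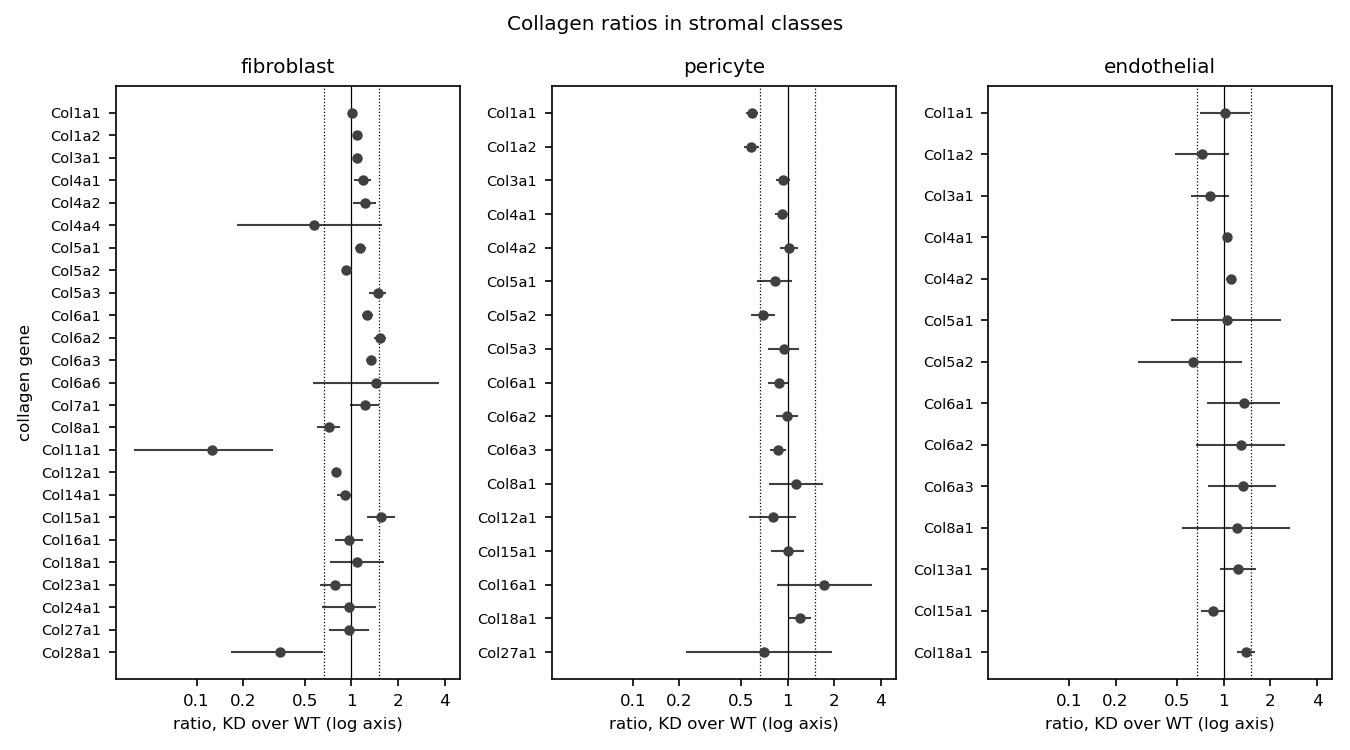
Ratio KD over WT on log axes, with 95% counting intervals, of each collagen gene with at least 20 UMIs in fibroblasts (25 genes), pericytes (17) and endothelial cells (14); dotted lines mark 1.5-fold. Col6a2 stands at 1.52 in fibroblasts, and Col1a1 and Col1a2 at 0.588 and 0.584 in pericytes.

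Collagen-handling genes in fibroblasts differed at few members, where 13.7% of all genes were lower and 7.85% higher. Of 18 modification genes and 4 cross-linking genes 0 were past the limit. Serpinh1 had 1265 CPM in KD and 1374 CPM in WT, Ppib 718 CPM in KD and 719 CPM in WT, P4ha2 a ratio of 1.29 and P4ha3 of 0.774. Loxl1 had 722 CPM in KD and 681 CPM in WT, Lox 572 CPM in KD and 596 CPM in WT, Loxl3 a ratio of 1.30 and Loxl2 of 0.955. Of 11 export genes 1 was higher, Tll1, with a ratio of 1.77 (0.970 to 3.26), and Adamts3 had the lowest ratio, 0.721. Bmp1 had 604 CPM in KD and 548 CPM in WT, and Adamts2, which removes the other end of procollagen, 517 CPM in KD and 578 CPM in WT. Of 6 breakdown genes Mmp13 was higher, at 1518 CPM in KD and 408 CPM in WT, a ratio of 3.72 (3.37 to 4.11). Mmp2, a gelatinase, had 1187 CPM in KD and 943 CPM in WT, and Pepd, a dipeptidase that frees proline, a ratio of 0.679.

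Of 7 collagen receptors in fibroblasts, Itga2 and Ddr1 were lower, Itga2 with 4 UMIs in KD and 16 in WT. Itgb1 had 453 CPM in KD and 554 CPM in WT, and Ddr2 286 CPM in KD and 281 CPM in WT. Of 17 genes of transcription and TGF-beta signalling 4 were lower, Tgfb3, Tgfbr1, Smad7 and Ccn2, and 1 was higher. Ccn2 had 121 CPM in KD and 278 CPM in WT, a ratio of 0.437 (0.352 to 0.539). Tgfbr2 had 699 CPM in KD and 742 CPM in WT.

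Collagen-handling genes in pericytes are read against 16.1% of all genes lower in KD and 13.3% higher. Of 17 modification genes 3 were lower, P4ha2, P3h1 and Fkbp14, with 5, 7 and 6 UMIs in KD and 22, 20 and 20 in WT. Serpinh1 had 976 CPM in KD and 1249 CPM in WT, Ppib 691 CPM in KD and 958 CPM in WT, and P4hb, a disulphide isomerase, a ratio of 1.26. Of 7 export genes Sec23a, a vesicle coat protein, was lower at 0.565, while Adamts2 had 446 CPM in KD and 397 CPM in WT and Bmp1 430 CPM in KD and 365 CPM in WT. Of 3 cross-linking genes Loxl2 was lower, at 157 CPM in KD and 304 CPM in WT, a ratio of 0.516 (0.350 to 0.745), and Loxl3 had a ratio of 0.953. Of 4 breakdown genes Ctsk, a collagen-degrading cathepsin, was lower with a ratio of 0.452 (0.257 to 0.759), and of 4 receptors 0 were past the limit.

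TGF-beta genes in pericytes went both ways, with 4 of 15 lower and 2 higher. Ccn2 was higher, at 305 CPM in KD and 85.7 CPM in WT, a ratio of 3.56 (2.36 to 5.48). Its direction was opposite to that in fibroblasts. It rests on 1 library a group, and the difference between classes was not tested.

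Endothelial cells had 0 of 15 modification genes and 0 of 4 receptors past the limit, and no cross-linking gene reached 20 UMIs. Of all genes 11.0% were lower and 11.9% higher in this class. Serpinh1 had 706 CPM in KD and 723 CPM in WT, and Itgb1 791 CPM in KD and 805 CPM in WT. Of 7 export genes 3 were lower, Mia3, Sec24d and Tll1, the last with 46.4 CPM in KD and 109 CPM in WT, a ratio of 0.428 (0.257 to 0.687). Of 3 breakdown genes Mmp2 and Pepd were lower, Mmp2 with 6 UMIs in KD and 26 in WT. Of 14 TGF-beta genes 2 were lower and 2 higher: Ccn2 had 96.9 CPM in KD and 220 CPM in WT, a ratio of 0.441 (0.313 to 0.612), and Tgfb2, a TGF-beta ligand, 22 UMIs in KD and 9 UMIs in WT, a ratio of 3.64 (1.61 to 8.97).

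Genes under 20 UMIs in a class carry no comparison there. They were 11 of 44 in tumour cells, 19 in fibroblasts, 27 in pericytes and 30 in endothelial cells. In tumour cells these were Col2a1, Col4a3, Col4a5, Col6a5, Col6a6, Col9a1, Col9a2, Col11a1, Col19a1, Col22a1 and Col28a1. No UMI was found in either library for 7 genes in fibroblasts, 14 in pericytes and 16 in endothelial cells. For these genes no difference was detectable at this depth.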

How the data were processed

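Both libraries were deposited by the authors as unfiltered UMI count matrices, made with Cell Ranger 4 per the file headers. No label or header names the genome build. From these counts, barcodes with at least 500 UMIs, at least 250 genes and at most 20% mitochondrial UMIs were kept unless like empty droplets (1000 draws, false discovery rate 0.01) or called doublets by Scrublet (876 KD and 482 WT barcodes). Cells were clustered with scanpy 1.11.5 and Leiden at resolution 1 on 2000 variable genes and 30 components, collagen and collagen-processing genes left out, and named from marker lists; tumour clusters also had Xist under 20 CPM. Cluster 8, led by markers of another class, and cluster 19 stayed unnamed (1372 KD and 411 WT cells together). Cluster 19, with 29 KD and 58 WT cells, carried 11 tumour markers but had 34.3 CPM of Xist. Its collagen level was 2201 CPM in KD and 3049 CPM in WT. UMIs were summed per class and library. A gene was compared with at least 20 UMIs over both libraries and called past 1.5-fold. Interval code was tested on simulated data. Named are the 8 most abundant collagens of a class, those past the limit, and, of each other list, the most abundant and extreme members. The collagen genes, lists and markers were chosen with earlier results of these data known. No replicates exist, so no test between conditions was made. The values of 1 gene of the TGF-beta list are not reported here.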

Additional observations from a re-analysis of the deposited data

How the results depend on the processing

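No paired analysis was possible because each group is 1 library. The tumour collagen ratio, 0.677 as reported, was 0.644 with every cell at equal weight, 0.969 with clusters at equal weight and 0.466 in cells of 10000 to 20000 UMIs. Chosen after seeing the data, it was 0.999 without cluster 2 and 0.9996 with KD levels in the WT mix of clusters. Of tumour collagens at least 1.5-fold lower (5), 3 were so with clusters at equal weight and 2 without cluster 2. Of those higher (4), the count was 2 with equal cells, 12 with no filter, 1 with a filter of 100 UMIs and 7 without cluster 2. With free RNA subtracted, Col1a2 (1.57) and Col12a1 (1.59) also passed the upper limit in tumour cells and Col15a1 (0.225) the lower limit. Col14a1 then had no ratio. The fibroblast total, 1.07, was 1.08 in cells of at least 2000 UMIs, 1.14 with free RNA subtracted, 1.10 with collagens in the clustering, 1.14 with doublets kept and, chosen after seeing the data, 0.927 with sub-clusters at equal weight; lower counts (3) were 6 with no filter, 0 at 100 UMIs and 5 with sub-clusters; higher counts (2) were 4 with free RNA subtracted, 4 with equal cells, 1 without the richest cell, 5 with no filter and 4 with sub-clusters. The pericyte total, 0.815, was 0.777 with free RNA subtracted and 0.920 with equal cells; lower counts (2) were 4 with free RNA subtracted, 1 with equal cells and 4 with no filter, and higher counts (1) 5 with no filter and 0 at 100 UMIs. The endothelial total, 1.09, was 1.16 with free RNA subtracted and 1.16 with doublets kept; lower counts (1) were 3 with free RNA subtracted, 0 with equal cells, 5 without the richest cell, 3 with no filter and 0 at 100 UMIs; higher counts (0) were 1, 5, 1 and 3 under the first 4 of these settings. Turned round with equal cells were Col14a1 in tumour cells (0.683), and Col4a4 (1.18) and Col15a1 (0.95) in fibroblasts. The cause of these shifts was not tested. Except for tumour clusters at equal weight, no share over all genes is given for these settings. The changed counts therefore have no background to be read against. Cluster 8 counted as tumour gave a total of 0.675, also chosen after seeing the data. Counts of few UMIs, and 45 to 50 pericytes a library, limit the stromal values most.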
